A study of Mus musculus with 8 samples.

Results

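Lysosome and autophagy genes were examined in quadriceps muscle of mice labelled Nup210-/- and Nup210+/+. The 37 genes were taken by symbol from a deposited table of 47643 genes. They comprise genes of lysosomal hydrolases, lysosomal membrane proteins, the TFEB family of transcription factors and the autophagy machinery. Each of the 37 symbols matched 1 row of the table, and all 37 passed the filter on low values that left 14229 genes to be tested. RNA was sequenced from 4 mice of each genotype, with 1 library per mouse. Their strain is C57BL/6 in the labels, and the lines had been backcrossed to C57BL/6J. Nothing beyond genotype distinguished the groups in the sample labels. The knockout is constitutive: exon 2 of Nup210, a gene for a membrane protein of the nuclear pore, was removed with a Cre driven from Hprt, so that every tissue carries the deletion. The age and sex of these mice were not given in the sources used here. The question was which of these genes differed in level between the genotypes in quadriceps.

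The deposited values are TPM, in which the estimate of a gene is divided by transcript length and each library is brought to the same total. Read depth is unknown, so precision rests on the spread between 4 mice. Between 18185 and 19357 genes were above 0 in a library. For comparisons, TPM were divided by a factor for each library, between 0.936 and 1.12, obtained from the median ratio of genes to their geometric mean, and the result is called scaled TPM. Fold changes are differences of log2(scaled TPM + 1), labelled Nup210-/- minus labelled Nup210+/+. In replicate order, the transcript of Nup210 itself had 9.54, 10.8, 11.9 and 8.81 TPM in the libraries labelled Nup210-/-, against 5.71, 10.1, 9.19 and 6.71 TPM in those labelled Nup210+/+. The transcript was thus not lower in the libraries labelled Nup210-/- (log2 fold change 0.44, limma adjusted p = 0.231), and values per gene do not show whether exon 2 was present. Every direction below therefore rests on the labels. The authors reported loss of the Nup210 protein in muscles of this knockout line by immunoprecipitation and immunofluorescence. That evidence is for the line and does not identify single libraries. Markers of muscle fibers were abundant in all 8 libraries, with a sum of 88490 to 103000 TPM over 9 genes. The Nup210+/+ replicate 2 library stood apart in 6 genes of granulocyte precursors, which summed to 381.7 TPM there and to between 0.31 and 2.12 TPM elsewhere.

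Lysosomes are acidic organelles in which hydrolases degrade proteins, glycans and lipids delivered by endocytosis or by autophagy. In autophagy, a membrane grows around cytoplasmic cargo, is coated with lipid-linked proteins of the LC3 and GABARAP family, and finally fuses with a lysosome. TFEB and its relatives TFE3 and MITF are basic helix-loop-helix factors that activate many genes of both processes through a palindromic element known as CLEAR, and in skeletal muscle both a lack and an excess of autophagy are known to harm fibers.

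The CLEAR element contains an E-box, so the promoters of the members were searched for both. The promoter was taken as the 250 bases before and the 50 bases after the start of each gene in RefSeq on GRCm38.p6, and 31 of the 37 members had such a window. None was at hand for Npc1, Becn1, Ctsb, Map1lc3a, Ctsh and Atg12. The E-box CACGTG occurred in the windows of 11 of the 31 members (35.5%), against 2187 of 27025 genes with a window (8.09%). The 8-base core of the element, TCACGTGA, occurred in 3 of 31 members (9.7%), Ctsd, Ctsa and Gla, against 304 of all genes (1.12%). Both motifs are palindromes, so a match lies on both strands, and every match to the core is also an E-box. The 11 windows are shown by 30 bases around 1 E-box each, because they are the members with the letters to which the TFEB family binds. Capitals mark the core in Ctsd, Ctsa and Gla and the E-box in the others. Positions are those of the first base of the E-box relative to the annotated start, which is 0, and lines are ordered by the level of the gene in muscle.
Ctsd (chr7:142387908-142387937, minus strand, position -98): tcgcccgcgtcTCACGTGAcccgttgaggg
Lamp1 (chr8:13159134-13159163, plus strand, position -15): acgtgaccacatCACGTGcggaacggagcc
Bnip3 (chr7:138909597-138909626, minus strand, position -108): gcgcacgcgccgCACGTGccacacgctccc
Gaa (chr11:119267811-119267840, plus strand, position -140): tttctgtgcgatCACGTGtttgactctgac
Ctsl (chr13:64370739-64370768, minus strand, position -236): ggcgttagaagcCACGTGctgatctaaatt
Ctsa (chr2:164833766-164833795, plus strand, position 5): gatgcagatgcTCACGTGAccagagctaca
Ctsf (chr19:4855074-4855103, plus strand, position -79): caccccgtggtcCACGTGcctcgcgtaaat
Atg5 (chr10:44268313-44268342, plus strand, position -14): cggagcgcttgcCACGTGgtcttggtgacg
Atg7 (chr6:114670952-114670981, plus strand, position -132): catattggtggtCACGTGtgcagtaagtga
Glb1 (chr9:114401018-114401047, plus strand, position -48): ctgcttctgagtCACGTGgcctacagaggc
Gla (chrX:134601182-134601211, minus strand, position -194): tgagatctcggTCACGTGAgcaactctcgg

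Lamp1 had 4 E-boxes in its window, Ctsd, Ctsa and Gla had 2 each, and the other members listed had 1. The windows follow RefSeq starts, which can lie downstream of the gene start in GENCODE, the source of the gene spans given below. The stretches of Atg7, Ctsa, Ctsl and Ctsd lie inside the GENCODE span of the gene. That of Atg7 lies deepest, as its span starts at 114643097. A match describes these letters only and does not show binding of a factor. The element is known from genes of these same processes, so its share among the members is a description and not an independent test. The log2 fold changes of these 11 genes ran from -0.49 in Glb1 to 0.21 in Gaa, so members that carry an E-box had estimates of either sign.

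The members spanned a wide range of levels in muscle. TPM are per transcript length, so levels of different genes can be set side by side. Ctsd, the aspartic protease cathepsin D, was the highest at a mean of 559.7 TPM over the 8 libraries. Psap, which encodes the precursor of the saposins that help hydrolases act on sphingolipids, followed at 403.0 TPM, and Lamp1, a heavily glycosylated protein of the lysosomal membrane, at 342.2 TPM. Sqstm1, the cargo receptor p62, had 308.9 TPM, Bnip3 259.0 TPM and Vcp 242.7 TPM. Lowest were Atg7 at 5.08 TPM, Glb1 at 2.69 TPM and Gla at 2.57 TPM. Together the 37 genes took 0.347, 0.365, 0.367 and 0.355% of the TPM of replicates 1 to 4 labelled Nup210-/-, and 0.357, 0.358, 0.399 and 0.343% in replicates 1 to 4 labelled Nup210+/+. The groups overlapped in this share, which was 0.358% ± 0.0091 (SD, n = 4) and 0.364% ± 0.0239 (SD, n = 4).

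**Figure D1:**
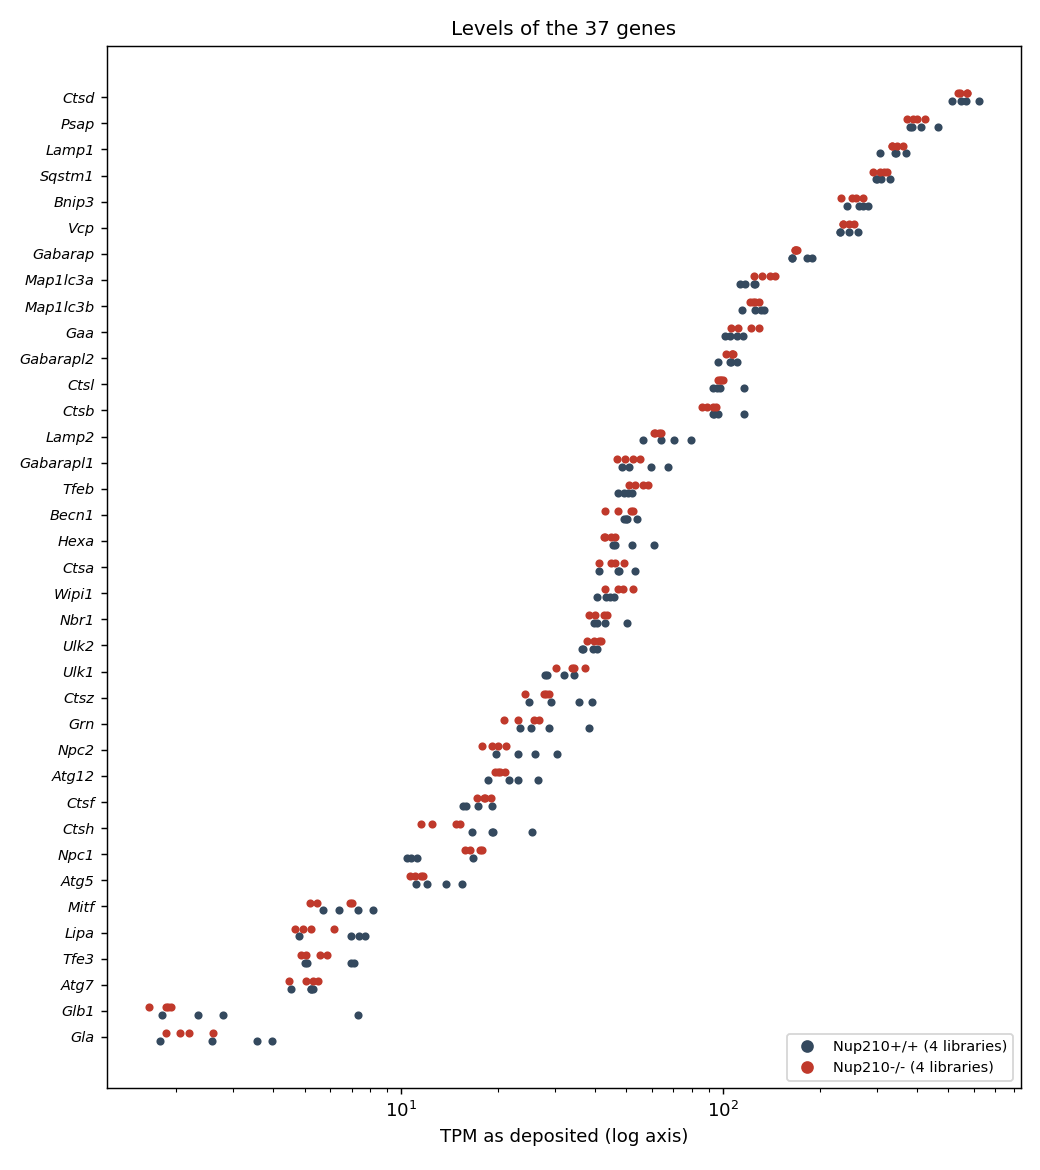
Level of each of the 37 genes in TPM as deposited (log axis), ordered by mean, with 1 point per library in red for the 4 libraries labelled Nup210-/- and in dark blue for the 4 labelled Nup210+/+. Means run from 2.57 TPM for Gla to 559.7 TPM for Ctsd, and the 2 colours overlap in 36 of the 37 genes, Ctsh being the exception.

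No member passed an adjusted p of 0.05 in the limma fit over all genes. The lowest adjusted p was 0.114, for Npc1, and 16 of the 14229 genes tested passed (0.112%). That count of 16 was itself unstable: it became 0 without Nup210-/- replicate 1, 3 or 4, 1 without Nup210-/- replicate 2, 2 without Nup210+/+ replicate 1, 2 or 3, and 10 without Nup210+/+ replicate 4. It was 0 under upper-quartile scaling, without the variance trend or with the replicate block, and 84 with library weights. At an unadjusted p under 0.05, 9 of the 37 members had a higher level in the libraries labelled Nup210-/- (24.3%), against 996 of all genes tested (7.00%). They were Npc1, Map1lc3a, Tfeb, Gaa, Wipi1, Ctsf, Lamp1, Ulk1 and Gabarapl2. A lower level at the same threshold was found for 2 members, Ctsh and Npc2 (5.41%), against 1021 of all genes (7.18%). The scaled TPM of the 4 libraries labelled Nup210-/- lay wholly above those of the 4 labelled Nup210+/+ in 9 members (24.3%), against 680 of all genes (4.78%). These were Npc1, Lamp1, Ctsd, Ctsf, Gaa, Tfeb, Map1lc3a, Gabarapl2 and Wipi1. None of the 37 lay wholly below, against 654 of all genes (4.60%). The members and the gene lists below were chosen with earlier results of these data known. Their shares beside those of all genes are therefore a description and not an independent test. The estimate was positive in 22 members and negative in 15, with a median log2 fold change of 0.04, against -0.01 over all genes tested. Where the genotypes did not overlap, the two-sided exact permutation test gave p = 0.0286 for the gene, which is the smallest that 4 against 4 libraries allow.

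The counts of higher members depended on how libraries were brought to a common scale. With TPM as deposited, in which the median log2 fold change of all genes was -0.08, 2 members in place of 9 were higher at an unadjusted p under 0.05, and no member lay wholly above while 1 lay wholly below, against 1.54% and 6.87% of all genes. The median of the members was then -0.06. After the mitochondrial genes and the top 20 genes by TPM were removed and TPM recomputed, 5 members were higher at that threshold, 4 lay wholly above and 1 wholly below, against 3.35% and 5.07% of all genes, and the median of the members was 0.00. Leaving out Nup210-/- replicate 2 or Nup210-/- replicate 4 also reduced the 9 higher members to 5. The 2 lower members became 1 without Nup210-/- replicate 1, Nup210-/- replicate 2, Nup210+/+ replicate 2 or Nup210+/+ replicate 3, and 4 without Nup210+/+ replicate 4.

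**Figure D2:**
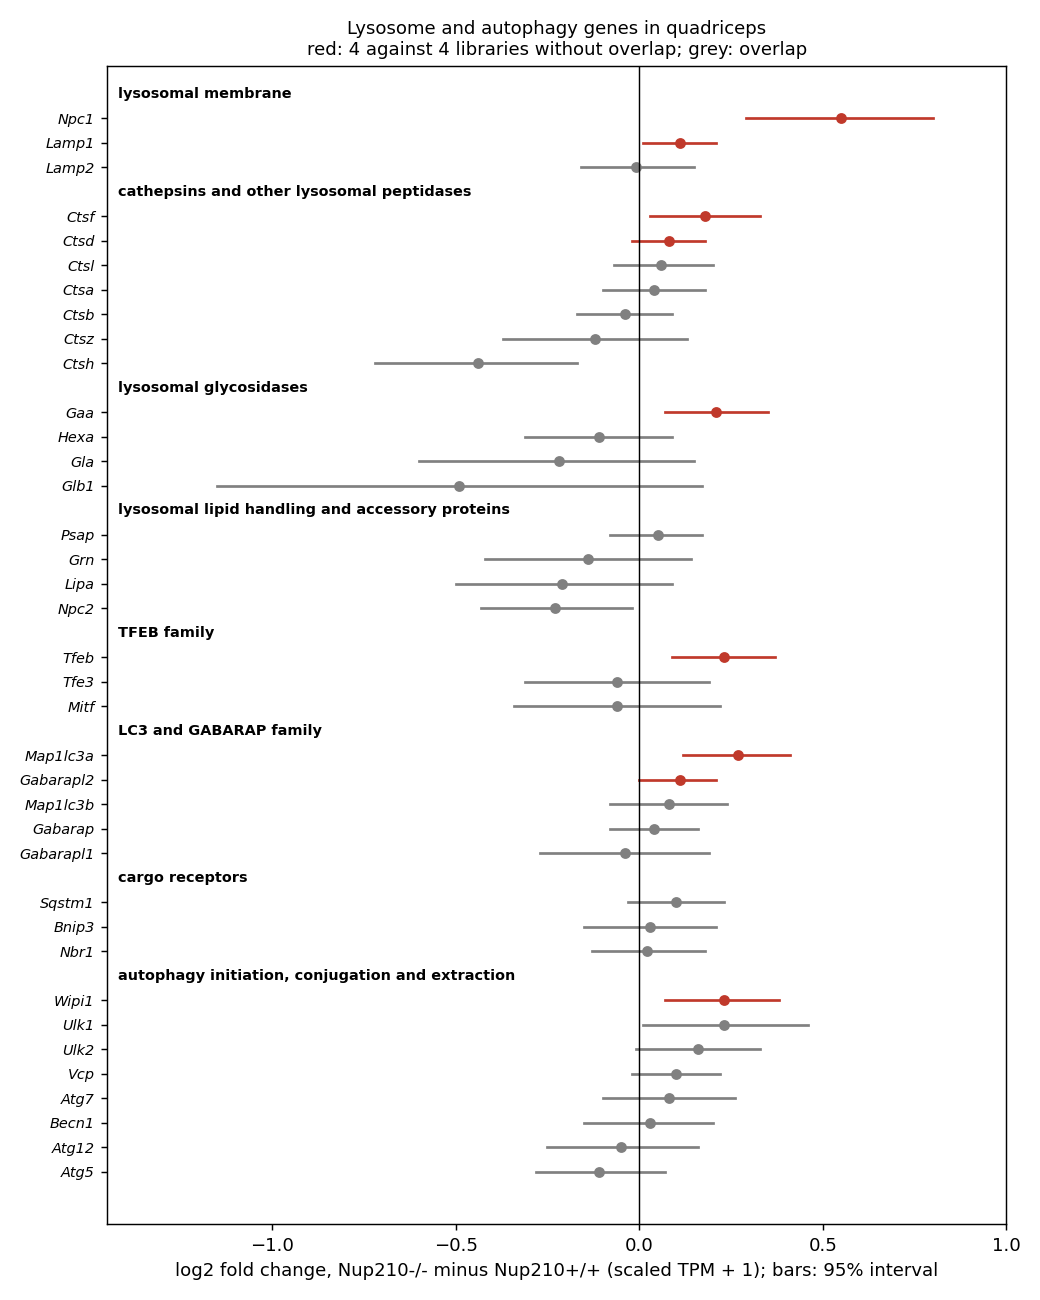
Log2 fold change of each of the 37 genes, labelled Nup210-/- minus labelled Nup210+/+, on the log2(scaled TPM + 1) scale and grouped by role; bars are 95% intervals from the limma fit, and red marks the 9 genes whose genotypes did not overlap. Npc1 is farthest to the right at 0.55, Glb1 farthest to the left at -0.49 with the widest bar, and the interval of Ctsh lies wholly below 0.

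Npc1 and Npc2 act in sequence on cholesterol inside the lysosome: the soluble NPC2 binds cholesterol freed from lipoproteins and hands it to NPC1, a membrane protein that moves it out. Npc1 was 18.8, 17.7, 16.3 and 16.8 scaled TPM in replicates 1 to 4 labelled Nup210-/-, and 10.8, 10.02, 14.8 and 11.2 scaled TPM in those labelled Nup210+/+. The groups did not overlap, although Nup210+/+ replicate 3 came near the lowest knockout-labelled library. The log2 fold change was 0.55 ± 0.113 (SE, n = 4 per group), with a 95% interval of 0.29 to 0.80. On TPM as deposited Nup210+/+ replicate 3, at 16.65 TPM, reached into the other group, whose lowest library had 15.76 TPM, and the permutation p was 0.0857 by the exact test. Without that library the log2 fold change of Npc1 was 0.66 (adjusted p = 0.0521), and with libraries weighted by their quality in limma, a fit that called 84 genes in place of 16, it was 0.58 (adjusted p = 0.0419). The gene (ENSMUSG00000024413) spans 12189692 to 12236400 of chromosome 18 (GRCm38, minus strand), and its exons share bases with Rmc1 and Gm15956 on the other strand.

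Npc2 had the opposite sign. It was 18.8, 19.4, 21.0 and 21.3 scaled TPM in the 4 replicates labelled Nup210-/- and 22.4, 25.1, 27.2 and 20.6 in the 4 labelled Nup210+/+. Nup210+/+ replicate 4 lay among the knockout-labelled libraries, so the groups overlapped, and the log2 fold change was -0.23 ± 0.0919 (SE, adjusted p = 0.309). The ratio of Npc1 to Npc2 within a library does not depend on how libraries are scaled. It was 1.00, 0.913, 0.776 and 0.791 in replicates 1 to 4 labelled Nup210-/-, and 0.484, 0.399, 0.545 and 0.544 in those labelled Nup210+/+. The means were 0.871 ± 0.108 (SD, n = 4) and 0.493 ± 0.0688 (SD, n = 4), without overlap. This ratio and the others given below were chosen after the values of the genes had been seen, so they carry no test.

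Lamp1 and Lamp2 encode the most abundant proteins of the lysosomal membrane, and LAMP2 is also needed for fusion of autophagosomes with lysosomes in muscle. Lamp1 was 352, 351, 360 and 358 scaled TPM in replicates 1 to 4 labelled Nup210-/- and 335, 331, 328 and 321 in those labelled Nup210+/+. The replicates of each group lay close together, so that a log2 fold change of only 0.11 ± 0.0451 (SE, adjusted p = 0.308) separated them fully. Its exons share bases with Grtp1 on the other strand, and on TPM as deposited the estimate was close to 0 and the groups overlapped (exact permutation p = 0.886). Lamp2 was 66.5, 65.1, 61.1 and 65.2 scaled TPM in the libraries labelled Nup210-/- and 62.3, 67.8, 70.9 and 59.0 in those labelled Nup210+/+. Its groups overlapped throughout, with a log2 fold change of -0.01 and a 95% interval of -0.16 to 0.15.

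The 7 genes of cathepsins and other lysosomal peptidases did not share a direction. Ctsd was 576, 579, 569 and 573 scaled TPM in the 4 replicates labelled Nup210-/- and 534, 549, 554 and 538 in the 4 labelled Nup210+/+. The groups did not overlap, but the limma test gave an unadjusted p of 0.118 for a log2 fold change of 0.08 ± 0.0457 (SE), and with TPM as deposited the estimate was -0.02. Exons of Ctsd share bases with Gm49369 on the same strand. Ctsf, the cysteine protease cathepsin F, was 18.1, 19.2, 18.0 and 19.2 scaled TPM against 16.8, 15, 17.0 and 16.6 in replicates 1 to 4 labelled Nup210+/+. All 4 knockout-labelled libraries were above all 4 others, with a log2 fold change of 0.18 ± 0.0643 (SE, adjusted p = 0.262). For Ctsf the estimate with TPM as deposited was 0.09 (unadjusted p = 0.299), with overlap.

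Ctsh, cathepsin H, an aminopeptidase, had the largest negative estimate of the peptidases. It was 16.0, 15.01, 12.4 and 12.3 scaled TPM in replicates 1 to 4 labelled Nup210-/- and 18.6, 15.9, 22.7 and 20.2 in those labelled Nup210+/+. Only Nup210-/- replicate 1 and Nup210+/+ replicate 2 crossed, narrowly, and on TPM as deposited the groups did not overlap. The log2 fold change was -0.44 ± 0.123 (SE, adjusted p = 0.183). Against Ctsd in the same library, Ctsh stood at 0.0278, 0.0259, 0.0218 and 0.0214 in the libraries labelled Nup210-/- and at 0.0348, 0.0291, 0.0409 and 0.0374 in those labelled Nup210+/+, again without overlap. The remaining peptidases overlapped between groups. Ctsl, cathepsin L, had a log2 fold change of 0.06, Ctsa, the protective protein of the lysosomal sialidase and beta-galactosidase, 0.04, Ctsb, cathepsin B, -0.04, and Ctsz, cathepsin Z, -0.12.

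Of the lysosomal glycosidases, Gaa stood apart from the others. It encodes acid alpha-glucosidase, which degrades glycogen in lysosomes and whose loss causes Pompe disease, a glycogen storage disease of muscle. Gaa was 118, 124, 128 and 113 scaled TPM in replicates 1 to 4 labelled Nup210-/- and 102, 111, 97.9 and 106 in those labelled Nup210+/+. The lowest knockout-labelled library exceeded the highest of the others by little, and the log2 fold change was 0.21 ± 0.0624 (SE), with a 95% interval of 0.07 to 0.35 (adjusted p = 0.202). With TPM as deposited Gaa overlapped between groups and its estimate was 0.11 (unadjusted p = 0.156). The gene lies on the plus strand of chromosome 11, from 119267887 to 119285454.

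Glb1, beta-galactosidase, was 1.96, 1.96, 1.63 and 2.01 scaled TPM in the 4 replicates labelled Nup210-/- and 2.71, 7.06, 2.08 and 1.89 in the 4 labelled Nup210+/+. The high value of Nup210+/+ replicate 2, the library with the granulocyte precursor markers, carried the estimate: the log2 fold change was -0.49 ± 0.292 (SE) with it and -0.15 without it. What part the cells marked by those genes have in this value was not tested. Exons of Glb1 share bases with Tmppe on the same strand. Hexa, the alpha subunit of beta-hexosaminidase, had a log2 fold change of -0.11 and Gla, alpha-galactosidase, one of -0.22, and both overlapped between genotypes. Both were also highest in Nup210+/+ replicate 2. Hexa was 58.9 scaled TPM there against 44.2 to 48.1 in the other Nup210+/+ libraries, and Gla 3.81 against 1.87 to 3.18. Over 20 alternative settings the estimate ran from -0.20 to -0.02 for Hexa and from -0.36 to -0.10 for Gla. The ratio of Gaa to Glb1 within a library was 56.2 to 78.6 in the libraries labelled Nup210-/- and 15.7 to 56.3 in those labelled Nup210+/+, and the ranges overlapped.

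Besides Npc2, the lipid handling and accessory proteins gave small estimates. Psap was 393, 405, 422 and 414 scaled TPM in replicates 1 to 4 labelled Nup210-/- and 399, 366, 414 and 404 in those labelled Nup210+/+. The ranges lay largely on top of each other, with a log2 fold change of 0.05 and a 95% interval of -0.08 to 0.17. Grn, progranulin, had a log2 fold change of -0.14 and Lipa, the lysosomal acid lipase that frees cholesterol from its esters, -0.21, with overlapping groups and intervals that included 0.

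The TFEB family was dominated by Tfeb itself in this muscle. Tfeb made up 82.7% ± 1.14 (SD, n = 4) of the summed TPM of the 3 genes in the libraries labelled Nup210-/- and 79.4% ± 2.91 (SD, n = 4) in those labelled Nup210+/+. Its level was 54.0, 59.1, 56.2 and 56.9 scaled TPM in replicates 1 to 4 labelled Nup210-/- and 49.4, 50.3, 43.8 and 49.4 in those labelled Nup210+/+. No library of the first group fell within the range of the second, and Nup210+/+ replicate 3 was the lowest of all. The log2 fold change was 0.23 ± 0.0618 (SE), with a 95% interval of 0.09 to 0.37 (adjusted p = 0.179). On TPM as deposited the estimate of Tfeb was 0.13 (unadjusted p = 0.0640) and the groups overlapped, with Nup210+/+ replicate 4 the lowest. Tfeb lies on the plus strand of chromosome 17, from 47737030 to 47792419, and shares no exon with another gene.

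Tfe3 was 5.90, 5.93, 5.03 and 5.22 scaled TPM in the 4 replicates labelled Nup210-/- and 6.77, 4.83, 6.35 and 5.33 in the 4 labelled Nup210+/+. Mitf was 5.47, 7.09, 5.43 and 7.41 in the first group and 7.14, 5.49, 7.27 and 6.72 in the second. Both overlapped, and both had a log2 fold change of -0.06, with 95% intervals of -0.31 to 0.19 for Tfe3 and -0.34 to 0.22 for Mitf. The ratio of Tfeb to the sum of the other members of the family was 4.75, 4.54, 5.37 and 4.50 against 3.55, 4.88, 3.22 and 4.10, and it overlapped because of Nup210+/+ replicate 2.

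The LC3 and GABARAP family encodes the ubiquitin-like proteins that are joined to lipid on the growing autophagosome and bind cargo receptors. Gabarap took the largest share of the family, 28.7% of its TPM in the libraries labelled Nup210-/- and 30.0% in those labelled Nup210+/+. Map1lc3a took 23.1% ± 1.19 (SD, n = 4) and 20.6% ± 1.26 (SD, n = 4), Map1lc3b 21.4% and 21.7%, Gabarapl2 18.0% in both, and Gabarapl1 8.70% and 9.70%. All of these shares overlapped between genotypes.

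Map1lc3a, which encodes LC3A, had the largest estimate of the family. It was 131, 134, 139 and 155 scaled TPM in replicates 1 to 4 labelled Nup210-/- and 122, 113, 111 and 118 in those labelled Nup210+/+. The groups did not overlap, and Nup210-/- replicate 4 was the highest, with a log2 fold change of 0.27 ± 0.0658 (SE), a 95% interval of 0.12 to 0.41 and an adjusted p of 0.154. With TPM as deposited it was 0.17 (unadjusted p = 0.0257), and the groups overlapped. The gene lies on the plus strand of chromosome 2, from 155276297 to 155278073. Gabarapl2, also known as GATE-16, was 113, 107, 106 and 109 scaled TPM against 103, 101, 98.3 and 101 in those labelled Nup210+/+. Its groups did not overlap either, with a log2 fold change of 0.11 ± 0.0474 (SE, adjusted p = 0.350), but with TPM as deposited the permutation p was 0.743 by the exact test.

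The other members of the family overlapped between genotypes. Map1lc3b, which encodes the LC3B commonly used to follow autophagosomes, was 131, 123, 129 and 134 scaled TPM against 111, 121, 119 and 137 in those labelled Nup210+/+. Gabarap was 177, 172, 166 and 178 against 159, 176, 168 and 171, and Gabarapl1 was 49.6, 55.9, 49.2 and 56.0 against 47.1, 49.0, 59.9 and 62.3. Their log2 fold changes were 0.08 for Map1lc3b, 0.04 for Gabarap and -0.04 for Gabarapl1. The ratio of Map1lc3a to Map1lc3b was 1.00, 1.09, 1.08 and 1.16 in replicates 1 to 4 labelled Nup210-/- and 1.10, 0.930, 0.929 and 0.858 in those labelled Nup210+/+, where replicate 1 was as high as the first group.

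None of the 3 cargo receptors reached an unadjusted p under 0.05. Sqstm1 encodes p62, which links ubiquitinated cargo to LC3. It was 309, 311, 314 and 344 scaled TPM in the 4 replicates labelled Nup210-/- and 300, 287, 293 and 314 in the 4 labelled Nup210+/+. Nup210+/+ replicate 4 lay within the first group, and the log2 fold change was 0.10 with a 95% interval of -0.03 to 0.23. Nbr1, a second receptor for ubiquitinated cargo, was 42.2, 44.0, 42.3 and 40.9 scaled TPM against 39.5, 38.2, 44.6 and 44.8, a log2 fold change of 0.02. Bnip3, a mitochondrial outer membrane protein that recruits LC3 in mitophagy, had a log2 fold change of 0.03 with a 95% interval of -0.15 to 0.21.

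Among the 8 genes of initiation, conjugation and extraction, Wipi1 gave the only separation of the genotypes. It encodes a protein that binds phosphatidylinositol 3-phosphate where autophagosomes form. Wipi1 was 45.5, 52.9, 48.5 and 50.2 scaled TPM in replicates 1 to 4 labelled Nup210-/- and 43.2, 39.0, 40.6 and 45.1 in those labelled Nup210+/+. The gap was narrow, between Nup210-/- replicate 1 and Nup210+/+ replicate 4, and the log2 fold change was 0.23 ± 0.0691 (SE, adjusted p = 0.207). The estimate of Wipi1 with TPM as deposited was 0.13 (unadjusted p = 0.103), with overlap. Ulk1, the kinase that starts autophagy, was 35.8, 34.9, 30.0 and 39.6 scaled TPM against 27.6, 26.9, 30.5 and 33.5 in those labelled Nup210+/+. Nup210-/- replicate 3 lay below 2 libraries of the other group, and the log2 fold change was 0.23 ± 0.0987 (SE, adjusted p = 0.328), or 0.14 with TPM as deposited (unadjusted p = 0.145). Its relative Ulk2 had a log2 fold change of 0.16 with a 95% interval of -0.01 to 0.33.

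Atg5, part of the complex that joins LC3 to lipid, had the lowest estimate of these 8. It was 11.3, 11.6, 10.98 and 12.4 scaled TPM in replicates 1 to 4 labelled Nup210-/- and 11.7, 13.2, 13.7 and 11.6 in those labelled Nup210+/+, a log2 fold change of -0.11 with overlapping groups. Its conjugation partner Atg12 had a log2 fold change of -0.05, and Atg7, the enzyme that activates both conjugation systems, 0.08. Becn1, a subunit of the lipid kinase complex, had a log2 fold change of 0.03, and Vcp, the ATPase that extracts ubiquitinated proteins and is mutated in a form of inclusion body myopathy, 0.10. All of these groups overlapped.

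**Figure D3:**
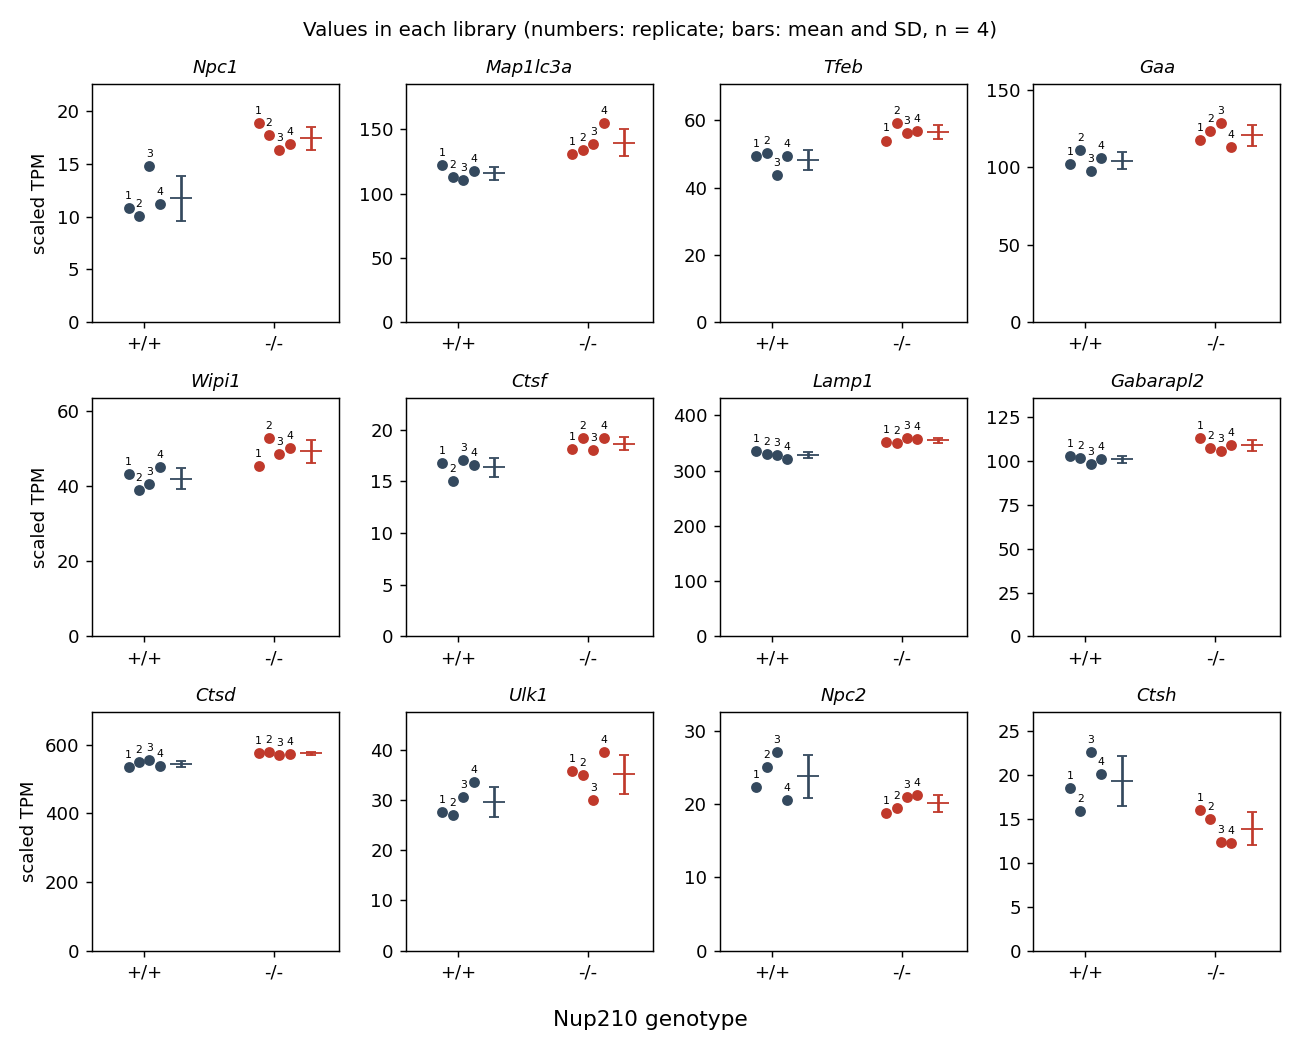
Scaled TPM in each library for the 12 genes that reached an unadjusted p under 0.05 or whose genotypes did not overlap, with the replicate number above each point and the mean and SD (n = 4) beside the points; dark blue is labelled Nup210+/+ and red labelled Nup210-/-. Points of Npc1, Lamp1, Ctsd, Ctsf, Gaa, Tfeb, Map1lc3a, Gabarapl2 and Wipi1 do not overlap between genotypes, and those of Ulk1, Npc2 and Ctsh do.

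The sums of 3 groups of members, which largely repeat their most abundant genes, were also separated on scaled TPM. The membrane genes summed to 438, 434, 437 and 440 scaled TPM in replicates 1 to 4 labelled Nup210-/- and 408, 408, 414 and 391 in those labelled Nup210+/+. The TFEB family summed to 65.4, 72.1, 66.6 and 69.5 against 63.3, 60.6, 57.4 and 61.4, and the genes of initiation, conjugation and extraction to 462, 456, 462 and 479 against 432, 420, 422 and 452. Each of these sums lay higher in all 4 libraries labelled Nup210-/-, and each overlapped on TPM as deposited. Sums of the peptidases, the glycosidases, the lipid handling genes, the LC3 and GABARAP family and the cargo receptors overlapped on both scales.

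**Figure D4:**
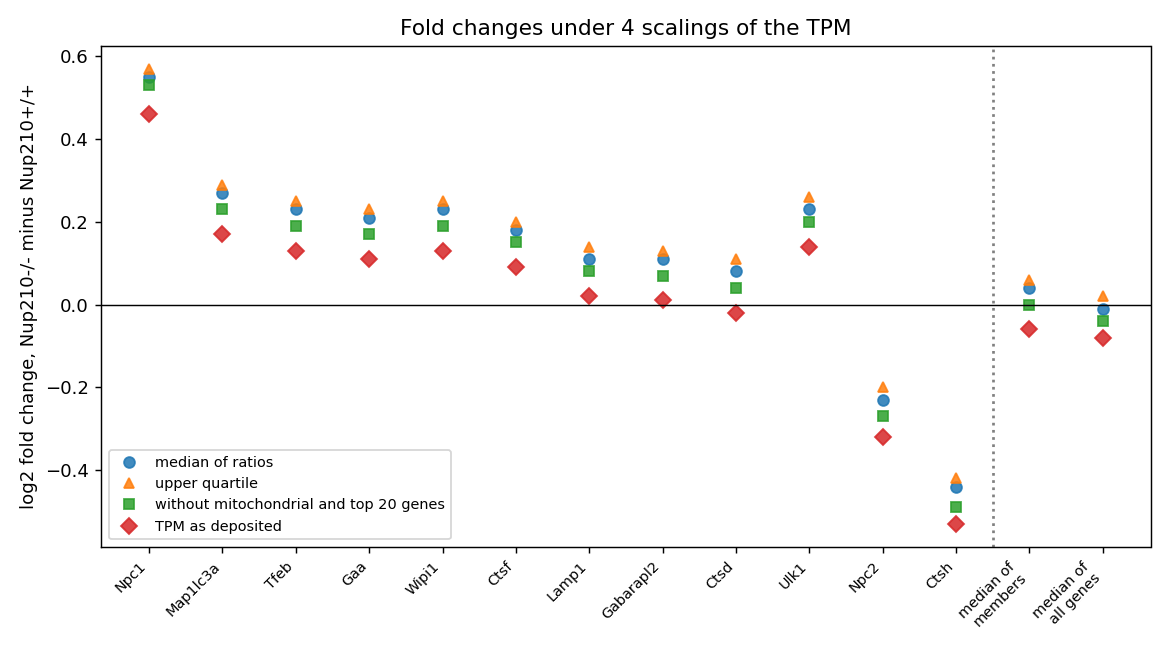
Log2 fold change, labelled Nup210-/- minus labelled Nup210+/+, of 12 genes and of the medians of the 37 members and of all genes tested, under 4 ways of scaling the libraries, each with its own symbol. Values of a gene shift together with the median of all genes: Npc1 runs from 0.46 to 0.57, Ctsh from -0.53 to -0.42, Ctsd reaches -0.02 with TPM as deposited, and the median of all genes lies between -0.08 and 0.02.

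The wider pathway was described with 123 further genes in 5 lists, all of which were tested. None passed an adjusted p of 0.05 in limma. At an unadjusted p under 0.05, 14 were higher in the libraries labelled Nup210-/- (11.4%, against 7.00% of all genes tested) and 6 lower (4.88%, against 7.18%). On scaled TPM 12 lay wholly above the other group (9.76%, against 4.78% of all genes) and 2 wholly below (1.63%, against 4.60%). The median log2 fold change was 0.00, with 62 positive and 61 negative estimates. With TPM as deposited 2 were higher and 11 lower at the unadjusted threshold, and 2 lay wholly above and 8 wholly below, where 1.54% and 6.87% of all genes did. The same shares of all genes are the background of the counts for each list.

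The lists differed in sign among themselves. Of 31 other lysosomal hydrolases, 25 had a negative estimate, with a median of -0.10, and none was higher and 2 were lower at an unadjusted p under 0.05. In some of them Nup210+/+ replicate 2, the library with the granulocyte precursor markers, stood high. Gusb was 18.6 scaled TPM there and 6.95 to 9.36 in the other Nup210+/+ libraries, and Man2b1 12.5 against 5.52 to 7.75. In others it did not, such as Acp5, highest in Nup210+/+ replicate 3. What part replicate 2 has in the sign of the list was not tested. On scaled TPM, Smpd1, acid sphingomyelinase, and Tpp1, tripeptidyl peptidase 1, lay wholly above the other group (log2 fold changes 0.12 and 0.11) and Ctsc wholly below. All 3 overlapped on TPM as deposited, where Galc alone of the 31 was separated, wholly below. Ctsc, cathepsin C, which activates serine proteases of leukocytes, was 34.4 ± 2.44 scaled TPM in the libraries labelled Nup210-/- and 41.4 ± 4.03 (SD, n = 4) in those labelled Nup210+/+, a log2 fold change of -0.26 (adjusted p = 0.214). Of 40 other autophagy genes, 32 had a positive estimate on scaled TPM, with a median of 0.09, and 7 were higher and none lower at that threshold. Calcoco1 had a log2 fold change of 0.26 (adjusted p = 0.169), Atg9a, the transmembrane lipid scramblase of the early autophagosome, 0.19 (adjusted p = 0.179), and Stx17, the syntaxin of autophagosomes that drives fusion with lysosomes, 0.27 (adjusted p = 0.186). None of these 3 overlapped between genotypes on scaled TPM, and Calcoco1 alone of them stayed separated on TPM as deposited. On that scale 1 of the 40 lay wholly above and 2 wholly below, Atg10 and Vamp8.

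The other lists were mixed. Of 17 subunits of the V-ATPase, the proton pump of the lysosome, 2 were higher and 2 lower at an unadjusted p under 0.05, with a median of -0.05. Atp6v0a1 was 43.4 ± 2.14 against 36.1 ± 2.28 scaled TPM (SD, n = 4; log2 fold change 0.26) and Atp6v1g1 240.2 ± 21.9 against 200.6 ± 12.4 (SD, n = 4; log2 fold change 0.26), both without overlap on scaled TPM and with overlap on TPM as deposited. On TPM as deposited no subunit lay wholly above and 4 lay wholly below, Atp6v0b, Atp6v0e, Atp6v1c1 and Atp6v1f. Of 16 other membrane and sorting genes, 2 were higher and 1 lower, the higher being the sorting receptors Sort1 (log2 fold change 0.29) and Igf2r (0.16), which were separated on scaled TPM and overlapped on TPM as deposited. Of 19 genes of mTORC1 and its regulators at the lysosome, 3 were higher and 1 lower. Rragd, a Rag GTPase that brings mTORC1 to the lysosome, had a log2 fold change of 0.24, Tsc1 and Tsc2, subunits of the complex that restrains mTORC1, 0.18 and 0.16, and Fnip1, a partner of folliculin, -0.31. These 4 genes did not overlap between genotypes on scaled TPM, and on TPM as deposited Rragd and Fnip1 stayed separated while Tsc1 and Tsc2 overlapped.

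Cell type markers differed between the groups as well. In whole muscle, fewer cells of a type and less RNA per cell cannot be told apart. All 18 markers of macrophages and general leukocytes had a negative estimate. Of these, 13 were lower at an unadjusted p under 0.05, against 7.18% of all genes tested. Cd52, a surface protein of leukocytes, was lower at a limma adjusted p of 0.049. The call of Cd52 held in 7 of 20 alternatives and was lost in the others, with an adjusted p of up to 0.226 under the replicate block. Of the libraries left out in turn, the call survived only the removal of Nup210+/+ replicate 4. The median log2 fold change of the 18 markers was -0.51. Their sum was 231 to 261 TPM in the libraries labelled Nup210-/- and 276 to 569 TPM in those labelled Nup210+/+, without overlap and highest in Nup210+/+ replicate 3. None of these 18 was at 0 in the means of either group. Fibroblast markers summed to 580 to 662 and 634 to 1175 TPM, and the sums overlapped. All 5 had a negative estimate and 3 were lower at an unadjusted p under 0.05, against the same 7.18%. Adipocyte markers summed to 204 to 390 and 246 to 633 TPM and overlapped, and endothelial markers to 64.2 to 74.7 and 69.7 to 82.5 TPM. All 5 adipocyte markers had a negative estimate, and 0 were lower at that threshold. Endothelial markers had 3 negative and 2 positive estimates, and 1 was lower, Tek (log2 fold change -0.24, limma unadjusted p = 0.00852). Tek did not overlap between groups on either scale. Of 9 genes of muscle fibers, all had a positive estimate, with a median log2 fold change of 0.19. Of these, 3 were higher at an unadjusted p under 0.05, against 7.00% of all genes tested. Their sums overlapped, at 95120 to 103000 and 88490 to 95480 TPM. What part these cell types have in the values of the lysosome and autophagy genes was not tested.

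**Figure D5:**
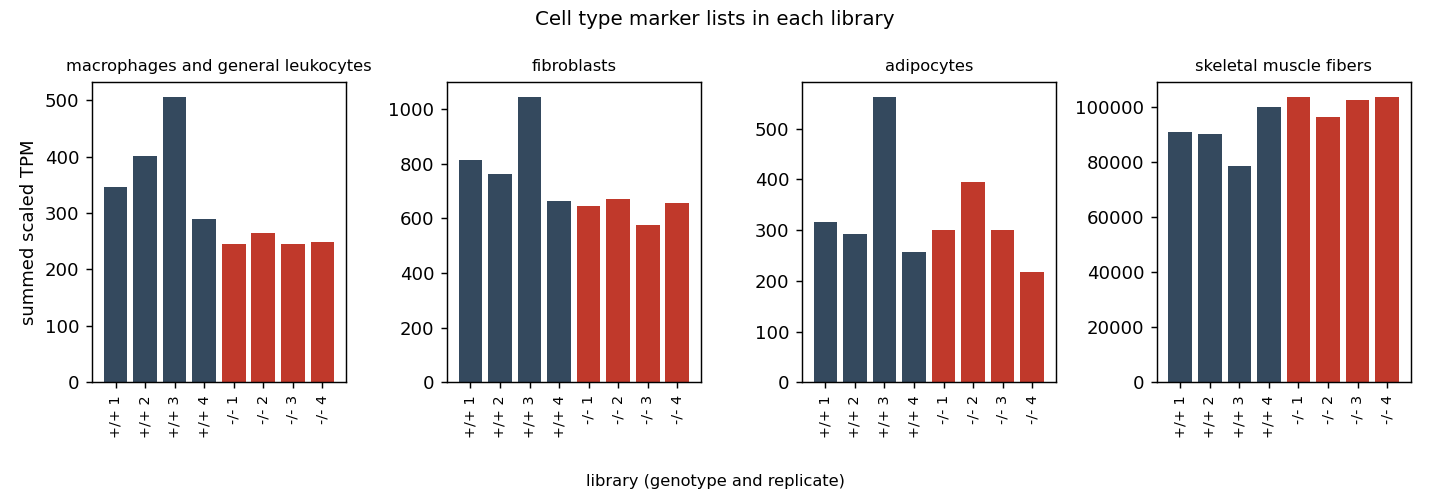
Summed scaled TPM of marker genes of 4 cell types in each library, labelled Nup210+/+ in dark blue and Nup210-/- in red; each panel has its own axis from 0. Macrophage and leukocyte markers are lower in all 4 libraries labelled Nup210-/- (244 to 265 against 289 to 506), Nup210+/+ replicate 3 is the highest in the fibroblast and adipocyte panels, and its muscle fiber sum is the lowest.

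Several limits bear on these values. Exons of 16 of the 37 members share bases with another gene, 3 of them on the same strand, and whether strand entered the counting was not stated in the sources used here. The p-values set the difference between the labelled groups against the spread within them. The labels do not say more about the mice than genotype, strain and tissue. A difference in age or sex between the groups therefore cannot be told apart from genotype.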

How the data were processed

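Quadriceps RNA of 4 mice labelled Nup210-/- and 4 labelled Nup210+/+ was sequenced by the authors from polyadenylated RNA with directional, single-end libraries. They trimmed reads with cutadapt 2.3, aligned them to mm10 with STAR 2.7.0d and quantified genes with RSEM 1.3.1 and Ensembl annotation. The authors deposited TPM per gene and library, with replicates not pooled. The counts they tested with DESeq2 were not used here, and depth is unknown.

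From the TPM, each library was scaled by the median of ratios over the 15225 genes above 0 in all libraries. Genes were kept where TPM averaged 0.5 or more, and tested on log2(scaled TPM + 1) with limma 3.58.1 in R 4.3.3 (eBayes with an intensity trend, genotype as the only term, Benjamini-Hochberg adjustment over all 14229 genes, threshold 0.05), which was tested on simulated data. Single genes were compared by two-sided exact permutation over 70 labelings. Coordinates and exon overlaps are from GENCODE on GRCm38. The members and gene lists were chosen with earlier results of these data known. Values in every library were given for members past an unadjusted p of 0.05, those without overlap of genotypes, the extremes of each role, the TFEB and LC3 families and the 3 highest genes, and other pathway genes were named by an unadjusted p under 0.05 without overlap. Smpd1, Tpp1, Galc, Gusb, Man2b1, Acp5, Atg10, Atg101, Vamp8, Wipi2, Epg5, Rab7, Tek, Atp6v0b, Atp6v0e, Atp6v1c1 and Atp6v1f were named after their values were seen. Macrophage, fibroblast, adipocyte, endothelial, granulocyte precursor and muscle fiber markers were summed per library. The 20 alternatives changed the pseudocount (0.1, 0.5), the filter (above 0, 0.1, 1), the scaling, the variance model, library weights, the replicate block, or left out a library. The labels do not say whether replicate numbers pair the mice, so the main fit used no pairing. Figures were drawn with matplotlib 3.10.9.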

Additional observations from a re-analysis of the deposited data

Results flagged for a closer look

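In 6 of 74 groups of 4 libraries, the highest or lowest scaled TPM of a member stood apart from the other 3 values by a gap that, divided by the range of the group, exceeded the 95% critical value of Dixon's test. Chance gives about 1 in 20, or 3.7 groups. Glb1 in Nup210-/- replicate 3 was 1.63 scaled TPM against 1.96 to 2.01 in the other replicates, a gap of 0.858 of the range. Glb1 in Nup210+/+ replicate 2 was 7.06 against 1.89 to 2.71 (gap 0.840). Tfeb in Nup210+/+ replicate 3 was 43.8 against 49.4 to 50.3 (gap 0.853). Sqstm1 in Nup210-/- replicate 4 was 344 against 309 to 314 (gap 0.877). Atg7 in Nup210-/- replicate 4 was 4.77 against 5.35 to 5.47 (gap 0.830). Ulk2 in Nup210+/+ replicate 4 was 42.5 against 35.0 to 35.3 (gap 0.960). Only scaled TPM were examined in this way, and the flags depend on that scale. On TPM as deposited, Tfeb was 50.74, 52.15, 49.18 and 47.1 in Nup210+/+ replicates 1 to 4, so replicate 3 was not the lowest. Ulk2 was 36.28, 36.62, 39.35 and 40.6 TPM in the same libraries. Glb1 in Nup210+/+ replicate 2 still stood at 7.32 TPM against 1.8 to 2.79 TPM.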

How the results depend on the processing

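No member passed an adjusted p of 0.05 in 19 of 20 alternatives, and with library weights 1 did, Npc1 (log2 fold change 0.58, adjusted p = 0.0419), in a fit that called 84 of 14229 genes in place of 16. Over the alternatives Npc1 ran from 0.46 to 0.66 (adjusted p 0.0419 to 0.291), and Npc1, Map1lc3a and Ctsh stayed past an unadjusted p of 0.05 in all 20. The sign was kept in all 20 by 23 members and not by the other 14. With TPM as deposited, 2 members were higher at an unadjusted p under 0.05, the median of the members reversed to -0.06, 2 wider pathway genes were higher and 11 lower, and 0 members lay wholly above and 1 wholly below. With TPM recomputed without the mitochondrial and 20 highest genes, these values were 5 members higher, a median of 0.00, 8 wider pathway genes higher, and 4 members wholly above and 1 wholly below. Without the variance trend, 3 wider pathway genes were lower. The cause of these differences was not tested. Leaving out each library in turn gave 5 to 9 members higher and 1 to 4 lower, a median of 0.01 to 0.06, 3 to 10 wider pathway genes lower, and 0 to 2 members wholly below. Same-numbered libraries did not deviate together (correlations -0.033, 0.005, 0.019 and 0.086), and 2 of 8 libraries correlated best with their own number. With the replicate block, 6 members were higher and 2 lower at an unadjusted p under 0.05, the adjusted p of Npc1 was 0.255, and 0 genes in place of 16 passed an adjusted p of 0.05. Depth is unknown, so counting error cannot be given for members of low TPM such as Gla and Glb1.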
